A study of Mus musculus with 18 samples.

Results

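The 9 genes described here encode enzymes that put acetyl groups on histones or take them off, and 1 corepressor that works with them. They are the acetyltransferase genes Ep300, Crebbp, Kat2a and Kat2b, the class I histone deacetylase genes Hdac1, Hdac2, Hdac3 and Hdac8, and the corepressor gene Ncor1. They were chosen by name, through the Ensembl identifier that each symbol carries. All 9 were found among the 19153 genes deposited, and all 9 passed the filter on low values that left 17672 genes for testing.

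The libraries came from immortalized mouse myoblasts, muscle precursor cells derived from a p53 knockout animal, so every group lacked p53. In the knockout (KO), the Tmpo isoform LAP2α, a nucleoplasmic partner of lamin A/C, had been disrupted with CRISPR-Cas9, while the wildtype control (WT) had received the Cas9 plasmid with no guide. Both were populations sorted for the plasmid's fluorescent reporter, not single clones. PolyA RNA was sequenced from proliferating cells in 20% serum (WT Prol, KO Prol). It was also sequenced from cells that had just become confluent, the start of differentiation, still in 20% serum (WT D0, KO D0). The last groups were cells after 48 hours in 5% serum (WT D2, KO D2). Each of the 6 groups had 3 libraries, and the comparisons ask how the genes changed with differentiation in each genotype and whether the genotypes differed. The labels do not say whether replicates were separate cultures, so p-values measure the spread between these libraries, which may be technical.

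Acetylation of histone tails loosens chromatin and is read by bromodomain proteins, and it is set by acetyltransferases and reversed by deacetylases. In muscle, the related proteins p300 (Ep300) and CBP (Crebbp), and PCAF (Kat2b), the paralog of GCN5 (Kat2a), act as coactivators of MyoD, whereas class I deacetylases hold muscle genes silent in undifferentiated myoblasts. Hdac1 and Hdac2 are catalytic subunits of the SIN3, NuRD and CoREST complexes, Hdac3 is recruited and activated by NCoR1 (Ncor1) and its relative SMRT, and Hdac8 acts outside these complexes and is known for deacetylating cohesin.

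Library totals recovered from the values ran from 26437823 to 41619016 expected counts (median 32939620). Values are in CPM, expected counts relative to the library total, scaled between libraries by the authors. All 8 proliferation markers fell and all 8 differentiation markers rose at D2 in both genotypes (limma, adjusted p under 0.05). At D2 the differentiation markers were lower in KO than in WT. Their median log2 fold change was -0.92, against -0.01 for all genes, and 0 of 8 passed. Of the 7 myoblast markers, Pax7 was not listed, Myod1 was at 2.59 ± 1.94 CPM in WT Prol and 88.9 ± 10.4 in WT D2 (SD, n = 3), and Des was at 3.44 ± 2.32 and 173 ± 50.4. Cdh15 was at 1.92 ± 0.959 and 127 ± 54.4, and Itga7 at 4.97 ± 1.76 and 125 ± 1.73. Myf5 was lower at D2 on average, at 24.5 ± 3.59 and 17.6 ± 5.27, and Ncam1 was at 139 ± 55.9 and 213 ± 94.1. The summed level of the 6 fibroblast markers ranged from 423 to 2199 CPM over the WT Prol libraries and from 2044 to 12517 over the WT D2 libraries (522 to 1554 and 3401 to 13864 in KO), with Col1a1 at 1002 and 5471 CPM on average, Pdgfra at 25.1 and 101, Dpt at 0.378 and 90 and Dcn at 0.213 and 47.8, while Thy1 was at 1.1 CPM or less on average in each group. The 2 listed macrophage markers summed to at most 8 CPM the 2 endothelial ones to at most 2.29 and the 2 adipocyte ones to at most 31.6. Tmpo, counted over all its isoforms so that LAP2α was not separated, was at 300 ± 21.8 CPM in WT Prol and 246 ± 16.6 in KO Prol. In such bulk samples, fewer cells of a type and less RNA per cell cannot be told apart, and the part of other cells or of the cell cycle in the results below was not tested.

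Since long transcripts give more reads, levels of different genes were compared as CPM per kilobase of annotated exon. On this scale, in WT Prol, Hdac1 was highest at 46.1 ± 1.08, followed by Hdac2 at 35.3 ± 2.68, Kat2a at 35.2 ± 3.55 and Hdac3 at 34.2 ± 5.72, which lay within their spread of each other (SD, n = 3). Ncor1 was at 12.3 ± 1.1, Ep300 at 7.09 ± 1.11, Crebbp at 5.55 ± 1.42, Kat2b at 3.97 ± 0.302 and Hdac8 at 1.07 ± 0.272. The WT Prol libraries of Ep300 and Crebbp overlapped, as did those of Crebbp and Kat2b, although Ep300 was above Crebbp within each of the 18 libraries. Among all genes, the mean level per kilobase of Hdac1 exceeded that of 93.8% and that of Hdac8 of 38.1%. Divided by the mean length of the coding transcripts in place of all exons, Hdac1 stayed highest (78 CPM per kilobase in WT Prol) and Hdac8 lowest (2.68), but Ep300, whose annotation holds many short isoforms, stood at 36.9 ± 5.76, close to Kat2a at 40.2 ± 4.06 and apart from Crebbp at 19.2 ± 4.9 (SD, n = 3).

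**Figure D1:**
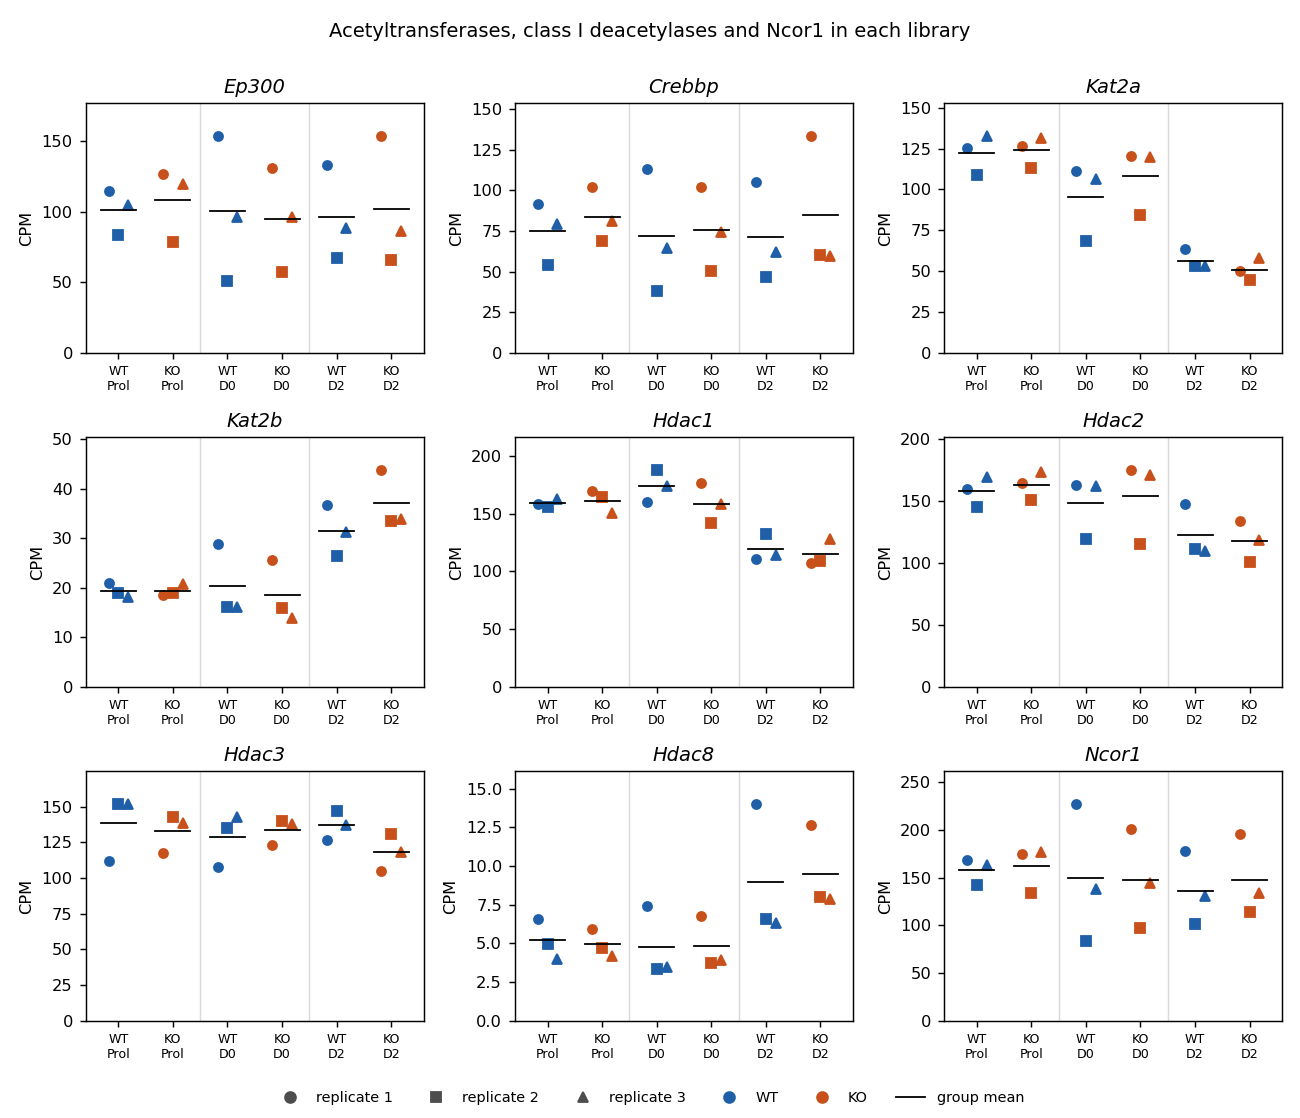
Level of each of the 9 genes in each of the 18 libraries. The vertical axes give CPM from 0, symbols mark the replicate number, colours the genotype, and black bars the mean of the 3 libraries of a group. Kat2a and Hdac1 were lower and Kat2b was higher in the D2 libraries than in the Prol libraries of the same genotype with no overlap, and Ep300, Crebbp and Ncor1 spread widely by replicate number.

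A pattern by replicate number ran through all groups and touched the members of long transcripts. Ep300 was highest in replicate 1 and lowest in replicate 2 in 6 of 6 groups. Crebbp was highest in replicate 1 in 6 of 6 groups and lowest in replicate 2 in 5, and Ncor1 was highest in replicate 1 in 5 and lowest in replicate 2 in 6. At D0 in WT, for example, Ep300 was at 154, 51.2 and 96.5 CPM in replicates 1, 2 and 3, and Ncor1 at 227, 83.6 and 138. Deviations from the group mean at D0 in WT were 0.75 and -0.83 on the log2 scale for Ep300 in replicates 1 and 2. The 1517 genes with a longest transcript of over 6000 bases had median deviations of 0.44 and -0.50 in these libraries, and the 1495 genes under 1500 bases -0.41 and 0.34. The annotated transcripts of Ep300, Crebbp and Ncor1 reach 9566, 10820 and 9037 bases. Members with shorter transcripts varied. Hdac3, with 2032 bases, went the other way and was lowest in replicate 1 in every group. Hdac1, with 2038, was highest in replicate 1 in 2 of 6 groups, and Hdac8, with 1936, in 6. Kat2a, with 3046, was lowest in replicate 2 in 6 of 6. The pattern was thus not confined to the long transcripts.

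After a linear trend on transcript length was taken out of each library, a step chosen after the data had been seen, the within-group standard deviation on the log2 scale went from 0.55 to 0.20 for Ep300, from 0.56 to 0.18 for Crebbp and from 0.45 to 0.13 for Ncor1. The median over genes above 5 CPM went from 0.35 to 0.29. Hdac1 was among the genes with the least spread, at 0.12 (percentile 2.21 of those genes), and Hdac8 remained widely spread, at 0.49 before and 0.55 after. The cause of the pattern was not tested.

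**Figure D2:**
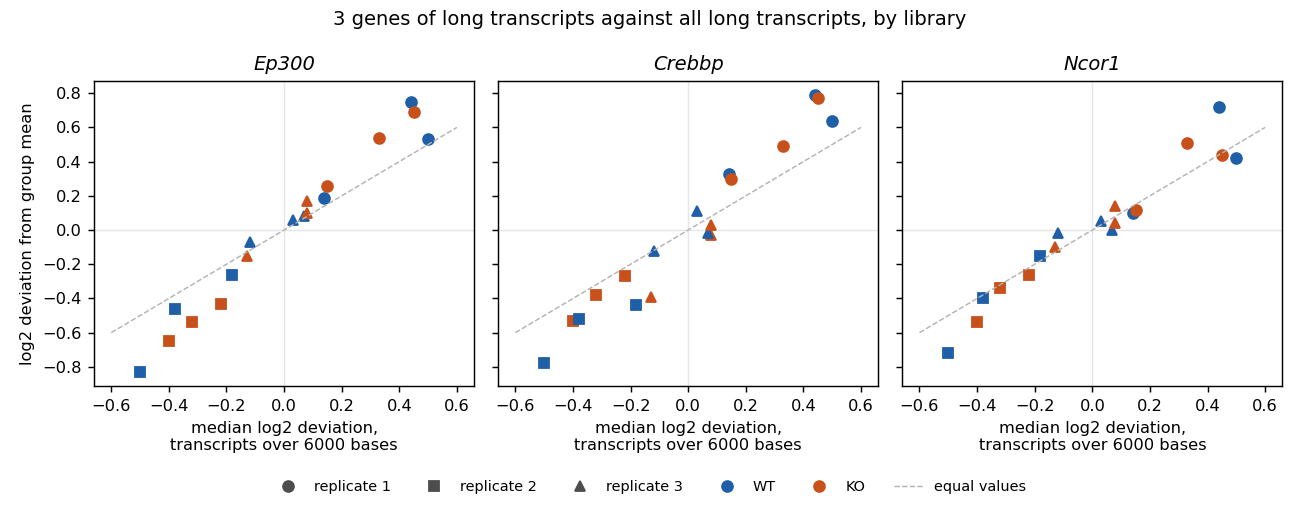
Deviation of Ep300, Crebbp and Ncor1 from their group mean in each of the 18 libraries (vertical axes, log2 scale) against the median deviation of the 1517 genes of long transcripts in the same library (horizontal axes, log2 scale). Replicate 1 lies at the upper right and replicate 2 at the lower left in every group, with WT D0 replicate 1 at 0.44 and 0.75 for Ep300; the dashed line marks equal values.

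The clearest change was the fall of Kat2a RNA. Its paralog Kat2b moved the other way, with a narrow call in WT. Kat2a lies on the minus strand of chromosome 11 (GRCm38, GENCODE M21, 100704746 to 100712465) and Kat2b on the plus strand of chromosome 17 (53566861 to 53672720). No stretch of 50 bases, the read length, was shared between their transcripts, so that reads of the 2 genes could be told apart, although 7.28% of the 50-base stretches of Kat2b also occur in its pseudogene Kat2b-ps. Their promoters are shown because these are the 2 members whose change passed the test and exceeded 1.5-fold in both genotypes. The sequences are from RefSeq's GRCm38.p6 table and lie upstream of the first annotated transcript, at chr11:100712468-100712717 on the minus strand and chr17:53566721-53566860 on the plus strand. Capitals mark E-boxes, CANNTG, the motif that MyoD and its relatives bind:

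Kat2a: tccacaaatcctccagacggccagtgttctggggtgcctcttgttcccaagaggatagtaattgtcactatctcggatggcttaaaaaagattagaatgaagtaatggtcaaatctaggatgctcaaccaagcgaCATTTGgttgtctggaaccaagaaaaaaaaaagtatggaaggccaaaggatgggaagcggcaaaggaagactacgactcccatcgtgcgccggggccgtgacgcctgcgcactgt
Kat2b: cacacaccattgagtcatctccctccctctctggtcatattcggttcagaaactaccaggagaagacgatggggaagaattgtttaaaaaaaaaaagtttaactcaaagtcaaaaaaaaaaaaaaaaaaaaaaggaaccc

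The Kat2a stretch, of 250 bases, held 1 such match and the shorter Kat2b stretch, of 140 bases, none. Promoter windows, 250 bases before to 50 after the start, were at hand for 7 members (not for Hdac1, and that of Hdac3 was not used). CANNTG, which reads the same on both strands, occurred in those of Kat2a (1 match) and Hdac8 (3 matches), and in 72.3% of all 32851 windows. CAGCTG, a form of CANNTG, occurred in none of the 7 and in 16.3% of all windows. The GC box GGGCGG, on either strand, occurred in the windows of Ep300, Crebbp, Hdac2 and Ncor1 and in 35.7% of all, and the E2F-type motifs TTTCGCGC and TTTGGCGC in none of the 7 and in 0.323% and 0.514% of all. The ratio of observed to expected CpG was 1.02 for Crebbp, 1.01 for Hdac2, 0.951 for Ncor1, 0.864 for Kat2a, 0.796 for Ep300, 0.672 for Kat2b and 0.332 for Hdac8, against a median of 0.384 over all windows. These matches are descriptions of the letters and not binding sites.

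In WT, Kat2a was at 126, 109 and 133 CPM in the 3 Prol libraries and at 63.4, 52.95 and 52.99 in the 3 D2 libraries. The KO libraries held 127, 113 and 132 CPM in Prol and 49.7, 44.4 and 57.9 in D2. Every D2 library was therefore below every Prol library. The log2 fold change of D2 over Prol was -1.12 in WT (standard error 0.20, limma, adjusted p = 0.000582) and -1.29 in KO (0.20, adjusted p = 0.00016), where adjusted p-values follow Benjamini and Hochberg over all 17672 genes. All 18 fits that left out 1 library kept both calls, with log2 fold changes of -1.20 to -1.05 in WT and -1.39 to -1.20 in KO.

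Kat2b moved the other way. In WT it was at 20.9, 18.9 and 18.1 CPM in Prol and at 36.8, 26.3 and 31.2 in D2. In KO it was at 18.4, 19 and 20.7 CPM in Prol and at 43.8, 33.6 and 33.8 in D2, so that here too the D2 and Prol libraries did not overlap. The log2 fold change was 0.69 in WT (standard error 0.25, adjusted p = 0.046) and 0.93 in KO (0.25, adjusted p = 0.00969). The call in WT was narrow: it was lost in 10 of 18 fits that left out 1 library, with the highest adjusted p, 0.132, without WT Prol replicate 3, and it held with voom weights (adjusted p = 0.0445).

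The ratio of Kat2a to Kat2b within a library, in CPM per kilobase, fell into separate ranges. In Prol it was 8.91 ± 1.21 in WT and 8.95 ± 0.662 in KO, and in D2 it was 2.53 ± 0.242 and 1.95 ± 0.411 (SD, n = 3). At D0 the libraries ranged between 5.42 and 9.22 (WT) or between 6.57 and 12 (KO). The D2 ranges of WT (2.38 to 2.81) and KO (1.59 to 2.395) overlapped. Its size depended on the length used: by mean coding transcript length it was 4.02 ± 0.545 in WT Prol, 1.14 ± 0.109 in WT D2, 4.04 ± 0.299 in KO Prol and 0.878 ± 0.186 in KO D2, where Kat2b was then above Kat2a on average. The ratio was not tested.

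**Figure D3:**
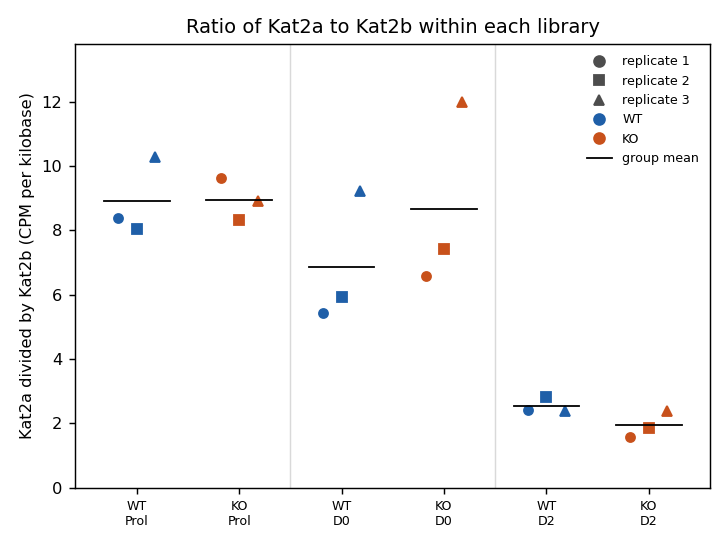
Ratio of Kat2a to Kat2b within each library, from CPM per kilobase. Symbols mark the replicate number, colours the genotype and black bars the mean of 3 libraries; all 6 D2 libraries lie between 1.59 and 2.81 and all Prol and D0 libraries at 5.42 or above.

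Ep300 and Crebbp gave no detectable change. Ep300, on chromosome 15 (81585351 to 81652077, plus strand), was at 115, 83.9 and 105 CPM in WT Prol and 133, 67.3 and 88.3 in WT D2. The KO libraries were at 127, 78.6 and 119.5 CPM in Prol and 154, 65.5 and 86.05 in D2. The log2 fold change was -0.12 in WT (95% interval -0.99 to 0.76, limma, adjusted p = 0.868) and -0.15 in KO (-1.02 to 0.72, adjusted p = 0.82). Crebbp, on chromosome 16 (4081328 to 4213997, minus strand), was at 91.9, 54.1 and 79.2 CPM in WT Prol and 105, 46.9 and 62 in WT D2. In KO it was at 102, 68.6 and 80.9 CPM in Prol and 134, 60.3 and 59.8 in D2. Its log2 fold change was -0.12 in WT (-1.01 to 0.77, adjusted p = 0.864) and -0.08 in KO (-0.96 to 0.81, adjusted p = 0.914). The groups of both genes overlapped throughout, and the intervals, which hold the spread by replicate number described above, were the widest among the members.

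With the length trend removed, the standard errors were smaller and the estimates stayed low. Ep300 was then at -0.10 in WT (standard error 0.17, adjusted p = 0.704) and -0.16 in KO (0.17, adjusted p = 0.489), and Crebbp at -0.11 (0.16, adjusted p = 0.648) and -0.10 (0.16, adjusted p = 0.676). Scaled by library totals alone, the estimates of Ep300 and Crebbp in WT turned to 0.05 and 0.04 as the median of all genes moved to 0.15. The ratio of Ep300 to Crebbp per kilobase stayed between 1.03 and 1.47 in all 18 libraries.

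Among the deacetylases, Hdac1, on chromosome 4 (129516104 to 129542713, minus strand), was lower at D2 in both genotypes. It was at 158, 156 and 163 CPM in WT Prol and at 111, 132 and 114 in WT D2. In KO it was at 169, 164 and 150 CPM in Prol and at 107, 109 and 128 in D2, again with no overlap. The log2 fold change was -0.42 in WT (standard error 0.15, limma, adjusted p = 0.0386) and -0.50 in KO (0.15, adjusted p = 0.0167), a fall to 0.75 and 0.71 of the Prol level. The call was lost in both genotypes when only the 2 groups compared were fitted (adjusted p = 0.108 and 0.0515) and when libraries were scaled by their totals (-0.26 and -0.36, adjusted p = 0.294 and 0.13). Relative to the median of all genes under that scaling, the changes were -0.41 and -0.52. In WT it was also lost in 8 of 18 fits that left out 1 library (highest adjusted p = 0.114, without WT Prol replicate 3) and in KO in 4 (highest 0.064, without KO Prol replicate 1).

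Hdac1 is a gene whose reads are partly ambiguous. Of the 50-base stretches of its transcripts, 35.3% also occur in other genes, mostly in the pseudogene Gm10093, so that the authors' estimate had to divide these reads. Gm10093 was listed at 52.7 ± 1.63 CPM in WT Prol and 38.3 ± 3.95 in WT D2, and at 48.8 ± 2.96 in KO Prol and 28.5 ± 4.07 in KO D2 (SD, n = 3). It took from 21.2% to 27.5% of the sum of both in 5 groups and from 19.2% to 20.5% in KO D2. For the sum of Hdac1 and Gm10093, the log2 fold change of D2 over Prol was -0.43 in WT (standard error 0.15, limma, adjusted p = 0.0439) and -0.56 in KO (0.15, adjusted p = 0.0115). The sum thus fell in both genotypes as Hdac1 itself did.

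Hdac2, on chromosome 10 (36974544 to 37001889, plus strand), was at 159, 145 and 169 CPM in WT Prol and at 147.5, 111 and 109 in WT D2. In KO it was at 164, 151 and 173 CPM in Prol and at 133, 101 and 119 in D2, which did not overlap, whereas the WT groups did. The log2 fold changes of -0.38 in WT (adjusted p = 0.172) and -0.48 in KO (adjusted p = 0.081) did not pass the test in limma. Same-numbered KO libraries deviated together, more weakly for replicate 3 (correlation 0.33, against 0.719 and 0.733 for replicates 1 and 2). A fit over all 18 libraries that also held the number as a factor (replicate block) is therefore given beside the KO values. There Hdac2 passed in KO (limma, adjusted p = 0.00564). It also passed in WT (adjusted p = 0.0225), where replicate 3 was barely paired (correlation 0.0451). The ratio of Hdac1 to Hdac2 per kilobase was 1.31 ± 0.073 in WT Prol and 1.29 ± 0.294 in WT D2, and 1.29 ± 0.151 and 1.28 ± 0.21 in KO (SD, n = 3).

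Hdac8, on the X chromosome (102284639 to 102505359, minus strand), was the least expressed member, with from 88.1 to 471 expected counts per library. It was at 6.6, 4.96 and 4 CPM in WT Prol and at 14, 6.6 and 6.34 in WT D2. In KO it was at 5.92, 4.7 and 4.21 CPM in Prol and at 12.6, 7.97 and 7.87 in D2. The D2 libraries were above the Prol libraries in KO with no overlap, and replicate 1 was the highest in 6 of 6 groups. The log2 fold change was 0.72 in WT (95% interval -0.08 to 1.53, limma, adjusted p = 0.169) and 0.92 in KO (0.12 to 1.72, adjusted p = 0.0758), neither past the threshold. In KO it passed with the replicate block (adjusted p = 0.000671), when only the groups compared were fitted (adjusted p = 0.0333) and under scaling by library totals (adjusted p = 0.0309), and in 2 of 18 fits that left out 1 library. In WT it passed with the replicate block too (limma, adjusted p = 0.00428). Without WT D2 replicate 1, the value in WT was 0.35 in the fit with no block.

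Hdac3 was nearly level. It was at 112, 152 and 152 CPM in WT Prol and 127, 147 and 137 in WT D2, and at 118, 143 and 139 in KO Prol and 105, 131 and 118 in KO D2. The log2 fold change was -0.00 in WT (95% interval -0.37 to 0.36, limma, adjusted p = 0.99) and -0.17 in KO (-0.54 to 0.19, adjusted p = 0.487). These intervals are narrower than those of the long genes. In WT the Hdac3 interval ends short of the Hdac1 estimate of -0.42, but the interval of Hdac1, -0.73 to -0.11, overlaps it. A difference between the 2 genes was not tested. Ncor1, on chromosome 11 (62316426 to 62458541, minus strand), was at 168, 142 and 163 CPM in WT Prol and 177, 101 and 130 in WT D2, and at 174.5, 134 and 177 in KO Prol and 195, 114 and 134 in KO D2. Its log2 fold change was -0.24 in WT (-0.96 to 0.47, adjusted p = 0.64) and -0.16 in KO (-0.88 to 0.56, adjusted p = 0.772).

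Counted over the 9 members, D2 against Prol in WT gave 1 gene higher, Kat2b, and 2 lower, Kat2a and Hdac1, where 16.6% of all genes tested were called higher and 14.1% lower. KO gave the same 1 higher and 2 lower, where 17.1% and 15.2% of all genes were called. With the replicate block in KO, 5 of 9 members passed, Hdac2 and Hdac8 being added, where 48.6% of all genes did. The same 5 passed with the block in WT, where 24.4% of all genes were called higher and 23.3% lower. In WT the pairing by number was not borne out for replicate 3 (correlation 0.0451). By looser criteria (unadjusted p under 0.05, a change of more than 1.5-fold, at least 10 CPM in 1 library), 2 of 9 members were called in WT, Kat2a and Kat2b, and 3 in KO, with Hdac8 added, against 23.6% and 24.9% of all genes. With a log2 fold change over 1.5 in place of 1.5-fold, as the study's methods word this criterion, 0 of 9 were called in either genotype, against 7.68% and 8.18% of all genes (limma). At an unadjusted p under 0.05 alone, 3 members were called in WT and 5 in KO, beside 7166 and 7322 of 17672 genes. With voom weights, 3 and 3 passed by adjusted p, beside 5439 and 5764 of these genes. By adjusted p, the members' shares are near those of all genes.

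**Figure D4:**
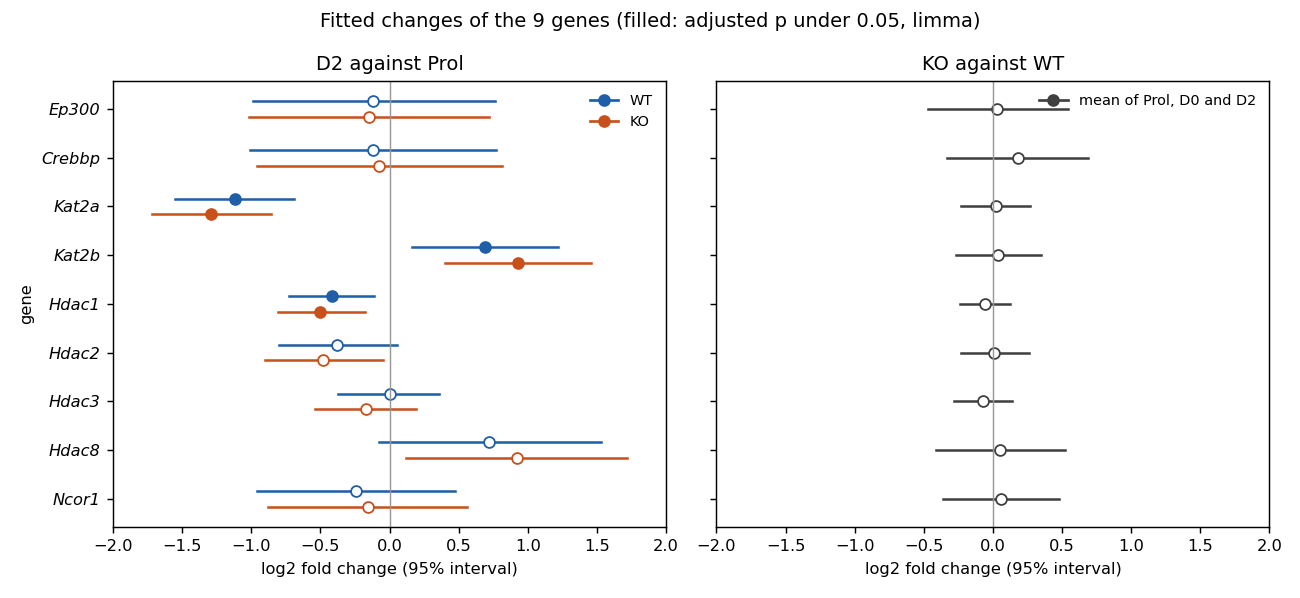
Fitted log2 fold changes with 95% intervals of D2 over Prol in each genotype (left) and of KO over WT averaged over the 3 states (right). Filled points passed the test (limma, adjusted p under 0.05): Kat2a, Kat2b and Hdac1 in both genotypes on the left, and no gene on the right.

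Confluence alone gave no member a detectable change. In D0 against Prol, 0 of 9 members passed in either genotype (limma), and 0 of 9 had an unadjusted p under 0.05, also with voom weights. With the replicate block, 1 of 9 did in WT, beside 1184 of 17672 genes. Without the block, 0.00566% of all genes were called in WT and 0% in KO, and 2.17% and 1.12% had an unadjusted p under 0.05. The members' log2 fold changes lay between -0.39 (Kat2a in WT, 95% interval -0.82 to 0.04) and 0.13 (Hdac1 in WT, -0.18 to 0.44). At D0, Kat2a was at 112, 68.45 and 106 CPM in WT and 121, 84.6 and 119.8 in KO, still above every D2 library. Kat2b was at 28.8, 16.1 and 16.1 CPM in WT and 25.7, 16 and 14 in KO.

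The D2 against D0 comparisons, which share the D2 libraries with those above, gave the step from confluence on. Kat2a had a log2 fold change of -0.73 in WT (standard error 0.20, limma, adjusted p = 0.0142) and -1.08 in KO (0.20, adjusted p = 0.000855), and Hdac1 of -0.55 (0.15, adjusted p = 0.0112) and -0.47 (0.15, adjusted p = 0.0257). Kat2b had 0.67 in WT (0.25, adjusted p = 0.0601), with WT D0 replicate 1 overlapping the D2 libraries, and 1.04 in KO (0.25, adjusted p = 0.00542). Thus 2 members passed lower and 0 higher in WT, where 11.3% and 14.7% of all genes did, and 2 lower and 1 higher in KO, where 12.9% and 15.3% did. Hdac8 had 0.93 in WT (adjusted p = 0.0856) and 1.00 in KO (adjusted p = 0.0607), and Hdac2 -0.27 (adjusted p = 0.357) and -0.37 (adjusted p = 0.187). With the replicate block in KO, Hdac8 (adjusted p = 0.000402) and Hdac2 (adjusted p = 0.0263) passed as well, 5 of 9 members against 46% of all genes. Libraries of replicate 3 were barely paired in this comparison (correlation 0.109). Hdac2 did not pass in KO with the block as a random effect and voom weights (adjusted p = 0.0553). In WT the block added Kat2b (limma, adjusted p = 0.00624) and Hdac8 (adjusted p = 0.00081). There 4 of 9 members passed, beside 7642 of 17672 genes, and replicate 3 was not paired (correlation -0.0193). When only the 2 groups compared were fitted, Kat2a (adjusted p = 0.12) and Hdac1 (adjusted p = 0.17) did not pass in WT.

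Loss of LAP2α left all 9 genes within the spread of the libraries. In KO against WT, 0 of 9 members passed in Prol, D0 or D2 (limma), where 0.00566%, 0% and 0% of all genes were called. The 8 differentiation markers, with a median log2 fold change of -0.92 at D2, did not pass either. A count of 0 therefore does not exclude a difference between the genotypes. None of the 9 had an unadjusted p under 0.05 in any of the 3 states, with or without voom weights, where 1.11%, 1.47% and 1.96% of all genes did in limma. With the replicate block, 1 of 9 did, Hdac3 at D2 (limma, adjusted p = 0.939), beside 925 of 17672 genes at D2. The 27 log2 fold changes ran from -0.22 (Hdac3 at D2, 95% interval -0.58 to 0.15) to 0.24 (Kat2b at D2, -0.29 to 0.77), and in each case the WT and KO libraries overlapped.

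Averaged over the 3 states, the intervals without the replicate block were tightest for Hdac1, with a log2 fold change of KO over WT of -0.06 (95% interval -0.24 to 0.12, limma), Hdac3 with -0.07 (-0.28 to 0.14), Kat2a with 0.02 (-0.23 to 0.27) and Hdac2 with 0.01 (-0.23 to 0.26). Kat2b had 0.04 (-0.27 to 0.35), Ncor1 0.06 (-0.36 to 0.48), Hdac8 0.05 (-0.41 to 0.52), Ep300 0.03 (-0.47 to 0.54) and Crebbp 0.18 (-0.33 to 0.69). With the replicate block, since same-numbered libraries deviated together, the intervals were narrower, at -0.21 to 0.09 for Hdac1, -0.14 to 0.18 for Kat2a, -0.18 to 0.26 for Kat2b, -0.18 to 0.25 for Ep300 and -0.04 to 0.40 for Crebbp. In none of the 9 did the adjusted p pass in either fit, and 0.00566% of all genes were called in this average. Among 9 same-numbered pairs of libraries, Crebbp and Ncor1 were higher in KO in 7, Kat2a and Hdac2 in 6, Ep300, Kat2b and Hdac8 in 5, Hdac1 in 4 and Hdac3 in 3. By state, Kat2b was higher in KO in 3 of 3 pairs at D2 and in 0 of 3 at D0, Ncor1 in 3 of 3 and Hdac3 in 0 of 3 at D2, Kat2a in 3 of 3 at D0, and Crebbp and Hdac2 in 3 of 3 in Prol. In every other combination of member and state the pairs were mixed. Only 3 pairs can readily fall all 1 way with no difference between genotypes, and these counts were not tested.

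The genotypes also did not differ detectably in how the members changed from Prol to D2. The difference of the log2 fold changes, KO minus WT, was -0.18 for Kat2a (95% interval -0.79 to 0.43) and 0.23 for Kat2b (-0.52 to 0.98), the member with the largest value, and 0 of 9 members passed (limma, adjusted p = 1 for each), as did 0% of all genes. None of the 9 had an unadjusted p under 0.05, also with voom weights. These intervals leave room for a difference of up to 0.79 for Kat2a and 0.98 for Kat2b on the log2 scale.

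The genes whose levels were most like those of each member over the 18 libraries are given as a description, with Pearson's r of log2 CPM. Ep300 was most like Nipbl (0.993) and Gpatch8 (0.984), Ncor1 like Gpatch8 (0.984) and Arhgap35 (0.979), and Crebbp like Taf1 (0.978) and Srcap (0.977). Kat2a was most like L3mbtl2 (0.988) and Vars (0.982), and Kat2b like Gm43305 (0.970) and Pcx (0.967). Hdac1 was most like Dnajc9 and Hmgb1 (0.954 each), Hdac2 like Ubqln1 and Nmt1 (0.991 each), Hdac3 like Gtpbp6 (0.868) and Tmem86b (0.866), and Hdac8 like P3h1 and Nucb1 (0.978 each). Among the members, Ep300 had r = 0.98 with Ncor1 and 0.95 with Crebbp, Kat2b 0.92 with Hdac8 and -0.80 with Hdac1, and Kat2a 0.88 with Hdac2 and -0.68 with Kat2b. All of these values share the 18 libraries and with them the state of the cells and the pattern by replicate number.

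Partner and related genes were taken from 11 lists holding 108 genes, of which 105 were tested. In D2 against Prol, 10 rose and 11 fell in WT (9.52% and 10.5% of those tested, against 16.6% and 14.1% of all genes), with a median log2 fold change of -0.23 against -0.01 for all genes. In KO, 9 rose and 13 fell (8.57% and 12.4%), with a median of -0.25 against 0.02 for all genes, beside 17.1% and 15.2% of all genes. With the replicate block, 15 rose and 40 fell in KO, where 24.6% and 23.9% of all genes did, and 12 rose and 37 fell in WT, where 24.4% and 23.3% did. In D0 against Prol, in KO against WT in each state and in the difference between genotypes, 0 of 105 passed (limma).

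Around the acetyltransferases, 0 of 23 tested subunits of SAGA and ATAC, the complexes that hold GCN5 or PCAF, rose. In WT and in KO 3 fell, where 14.1% and 15.2% of all genes did. Under the replicate block 8 fell in WT and 11 in KO, beside 23.3% and 23.9% of all genes. Wdr5, a WD-repeat protein also found in histone methyltransferase complexes, went from 134 ± 18.1 to 53.7 ± 15.7 CPM in WT (SD, n = 3; log2 fold change -1.35, limma, adjusted p = 0.000661). Sgf29, a reader of methylated histone H3, had -1.12 (adjusted p = 0.000431) and Tada2a, an ATAC adaptor, -0.77 (adjusted p = 0.00682), both also falling in KO. Of 11 other acetyltransferases, 2 rose and 2 fell in each genotype. Of all genes, 16.6% rose and 14.1% fell in WT, and 17.1% and 15.2% in KO. Under the block, 2 of these acetyltransferases rose and 4 fell in WT, and 3 rose and 4 fell in KO. Hat1, which acetylates new histones before their deposition, went from 197 ± 18.6 to 49.4 ± 7.8 CPM in WT (-2.01, adjusted p = 2.8e-06), and Kat14, the second acetyltransferase of ATAC, had -0.82 (adjusted p = 0.0174). Ncoa1, a nuclear receptor coactivator, went from 6.25 ± 0.944 to 28.7 ± 14.5 CPM (2.10, adjusted p = 0.00133), and Kat6b had 1.06 (adjusted p = 0.00531). The p300 and CBP interactor Cited2 fell in both genotypes (-1.61 in WT, adjusted p = 0.00321), and Cited1 rose in WT from 0.204 to 0.735 CPM on average (adjusted p = 0.0256) and had 0.60 in KO (adjusted p = 0.449). Acss2, which makes acetyl-CoA from acetate, rose in both (1.76 in WT, adjusted p = 0.000601). Of the 8 bromodomain and related readers of acetyl-lysine, 0 passed in WT and 1 fell in KO, and under the block 6 fell in WT and 5 in KO, beside 23.3% and 23.9% of all genes.

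Around the deacetylases, 0 of 13 NuRD subunits rose and 3 fell in WT and 5 in KO, where 14.1% and 15.2% of all genes fell, with medians of -0.52 and -0.62. Under the block, 7 fell in WT and 9 in KO, beside 23.3% and 23.9% of all genes. Cdk2ap1, a small NuRD subunit, went from 210 ± 24.8 to 110 ± 3.41 CPM in WT (SD, n = 3; -0.93, limma, adjusted p = 0.000775) and from 215 ± 8.08 to 87.2 ± 2.43 in KO (-1.30, adjusted p = 4.03e-05). Mta1 had -0.85 in WT (adjusted p = 0.0139), and Rbbp7, a histone chaperone shared by NuRD and SIN3, -0.88 (adjusted p = 0.0315). Of 15 SIN3 subunits, 0 rose and 2 fell in each genotype, where 14.1% and 15.2% of all genes fell. Under the block, 6 fell in WT, and 1 rose and 7 fell in KO. Among them, Sap18 fell in WT (-0.88, adjusted p = 0.014) and had -0.48 in KO (adjusted p = 0.164). Of 9 CoREST subunits, 3 rose in WT and 2 in KO and 0 fell, where 16.6% and 17.1% of all genes rose. Under the block, 4 rose and 1 fell in WT, and 4 rose and 2 fell in KO. Rcor3 had 0.84 in WT (adjusted p = 0.00516) and 1.05 in KO (adjusted p = 0.000966), Hmg20b 0.58 in WT (adjusted p = 0.0126), and Zmym3 0.93 in WT (adjusted p = 0.0486) and 0.82 in KO (adjusted p = 0.0761). Of 4 tested subunits of NCoR and SMRT, the partners of Hdac3, 0 rose and 1 fell in WT, Gps2 (-0.54, adjusted p = 0.0297; -0.41 in KO, adjusted p = 0.0871). Of 6 MiDAC and MIER subunits, 0 passed in either genotype, with 2 falling in WT and 1 in KO under the block.

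The deacetylases outside class I that passed the test were higher at D2. Of 14 tested, 3 rose in WT and 4 in KO and 0 fell, where 16.6% and 17.1% of all genes rose. Under the block, 4 rose and 1 fell in WT and 6 rose and 1 fell in KO, beside 24.4% and 24.6% of all genes rising. Hdac9, a class IIa enzyme that binds MEF2, was at 0.308 ± 0.11 CPM in WT Prol and 7.17 ± 3.24 in WT D2 (SD, n = 3; log2 fold change 4.53, limma, adjusted p = 1.11e-05), and had 3.50 in KO (adjusted p = 0.000126). Hdac11, the class IV enzyme, went from 10.3 ± 0.823 to 35.4 ± 6.66 CPM in WT (1.77, adjusted p = 8.31e-05) and had 1.59 in KO (adjusted p = 0.000217). Sirt2, an NAD-dependent deacetylase found mostly in the cytoplasm, had 0.84 in WT (adjusted p = 0.0251) and 0.95 in KO (adjusted p = 0.0123). Among the class I members, Hdac8 had positive values in both genotypes, as given above. The difference between the classes was not tested.

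**Figure D5:**
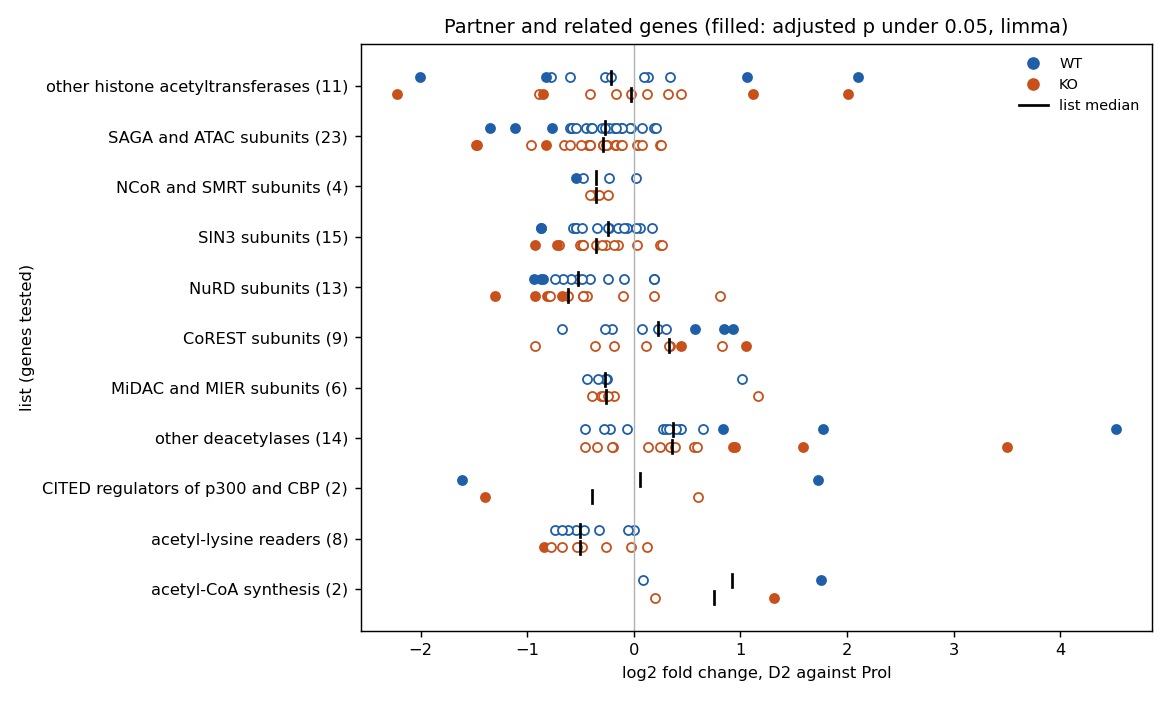
Log2 fold change of D2 over Prol (horizontal axis) of the 105 partner and related genes tested, grouped by list with the number tested in parentheses. Filled points passed the test (limma, adjusted p under 0.05), colours mark the genotype and black bars the list medians; NuRD subunits lie mostly below 0 (medians -0.52 and -0.62) and the largest rise is Hdac9.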

How the data were processed

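RNA of 18 libraries was sequenced. The authors trimmed reads with cutadapt, mapped them with NextGenMap (GRCm38), derived expected counts by RSEM and scaled them with edgeR (TMM). The deposited value is a CPM, (expected count + 0.5) over the scaled library total, written with a decimal comma. This was checked on the values, and the scaling factors multiply to 1.0000. From 43.1% to 56% of recovered counts under 20 were whole (within 0.02 counts), so no count test was used.

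Log2 of the deposited CPM was fitted with limma 3.58.1 in R 4.3.3 (lmFit, eBayes, trend on) over all 18 libraries with group as the factor (6 levels), on 17672 genes with over 5 expected counts in all 3 libraries of a group. Tests were two-sided, adjusted after Benjamini and Hochberg over these genes, and passed with adjusted p under 0.05. The fit was tested on simulated data. Genes named are the 9 members and the 2 most like each member. From each list, up to 3 with the largest rise and 3 with the largest fall in WT among those passing are added. Of these, 3 proliferation and 3 differentiation markers are given only as counts and a list median. Members, lists and tests were chosen with earlier results of these data known. Lengths are from GENCODE M21. Depth limits Hdac8 most, and intervals cover the spread between libraries.

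Whether replicate numbers pair libraries was checked with the correlation, over genes above 5 CPM, between libraries of the same number after their group means were subtracted. It was over 0.1 for all 3 numbers (lowest 0.109) except in the WT comparisons of D2 with Prol (0.0451 for replicate 3) and with D0 (-0.0193). The study blocked on the sequencing lane, which the labels do not give. Alternatives were other scalings, voom weights, filters, a pseudocount of 1 CPM, the block, only the groups compared, each library left out, other lengths and windows, and, added after seeing the data, the length trend removed, a log2 fold change over 1.5 and Hdac1 summed with Gm10093.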

Additional observations from a re-analysis of the deposited data

How the results depend on the processing

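Over the 43 log2 fold changes of members reported, alternatives other than leaving out a library kept the direction and the side of the threshold in 418 values, moved 32 past the threshold and 9 below it, and turned the sign of 11. Leaving out 1 library at a time gave 689, 10, 29 and 46. With the replicate block, 5 of 9 members passed in D2/Prol in WT and 5 in KO (3 each without it), 4 in D2/D0 in WT (2 without) and 5 in KO (3 without). Voom weights with a random block, fitted to all 19153 genes with no filter, gave 5, 5, 4 and 4 in WT D2/Prol, KO D2/Prol, WT D2/D0 and KO D2/D0. Of all genes, 8096, 8410, 7216 and 7910 passed there, and Hdac2 did not pass in KO D2/D0 (adjusted p = 0.0553). The block with the length trend removed gave 5 in all 4, and all genes passing were not counted for it. In WT, where the pairing of D2 libraries by number was not borne out for replicate 3, the block added Hdac2 (adjusted p = 0.0225, limma) and Hdac8 (0.00428) in D2/Prol, and Kat2b (0.00624) and Hdac8 (0.00081) in D2/D0. By a log2 fold change over 1.5 with an unadjusted p under 0.05, 0 of 9 were called in WT D2/Prol, 0 in KO D2/Prol, 0 in WT D2/D0 and 0 in KO D2/D0, a criterion no member's change reached. Of 17672 genes, 1358, 1445, 1188 and 1261 were called by it with at least 10 CPM in 1 library. Over all genes the block raised the calls from 5424 to 8431 (WT D2/Prol), 5706 to 8580 (KO D2/Prol), 4590 to 7642 (WT D2/D0) and 4997 to 8126 (KO D2/D0). The cause was not tested. It changed no other call of a member. With only the groups compared, 0 of 9 passed in WT D2/D0, as fewer samples were fitted, Hdac1 was lost in KO D2/D0 (adjusted p = 0.206), and Hdac8 passed in KO D2/Prol (0.0333). Scaled by library totals, Hdac1 was lost in D2/D0 (adjusted p = 0.0896 in WT and 0.145 in KO), Kat2b passed in WT D2/D0 (0.0231), and Hdac8 passed in KO D2/Prol (0.0309), WT D2/D0 (0.0363) and KO D2/D0 (0.0268). The sign turned in WT D2/Prol for Ep300 (0.05) and Crebbp (0.04) under library totals and for Hdac3 under median-of-ratios scaling (0.01), library totals (0.16) and the length trend removed without or with the block (0.08 and 0.08), in KO D2/Prol for Crebbp under library totals (0.05), and in KO over WT averaged over states for Ep300 (-0.03 and -0.03) and Ncor1 (-0.01 and -0.01) with the length trend removed without or with the block. None of these had passed the test. Leaving out 1 library, from 1 to 3 members passed in WT D2/Prol (1, for example, without KO Prol replicate 1), 1 to 3 in WT D2/D0 (1 without WT D0 replicate 3), and 2 to 4 in KO D2/Prol and KO D2/D0. Kat2a in WT D2/D0 was lost in 3 of these 18 fits (highest adjusted p = 0.0712, without WT D0 replicate 3) and Hdac1 in KO D2/D0 in 4 (highest 0.0917, without KO D0 replicate 1). The sign turned over these fits for Ep300 (-0.38 to 0.11), Crebbp (-0.44 to 0.14) and Hdac3 (-0.15 to 0.07) in WT D2/Prol, for Ep300 (-0.50 to 0.12), Crebbp (-0.46 to 0.12) and Ncor1 (-0.38 to 0.01) in KO D2/Prol, and, in KO over WT averaged over states, for Ep300 (-0.10 to 0.16), Kat2a (-0.06 to 0.08), Kat2b (-0.05 to 0.13), Hdac2 (-0.04 to 0.08), Hdac8 (-0.04 to 0.18) and Ncor1 (-0.06 to 0.18). Fitting only the groups compared gives no value for that average.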
